A study of Drosophila melanogaster with 9 samples.

Results

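The genes described here build the neuronal release site and its vesicle cycle: the active zone, the membrane fusion machinery, its calcium sensors, the endocytic proteins that retrieve vesicle membrane, and the adhesion proteins that join the presynaptic terminal to its partner. The set holds 37 gene symbols, taken by name and not by any measured value, though with earlier results of these data known. Of these, 33 were found on a probe set that names a single gene, among 11983 genes so named on the array. *Syx1A*, *comt*, *Syt1* and *Syt4* are not analysed here. Where several probe sets named a gene, the brightest by mean log2 signal over the 9 arrays represented it. A total of 30 genes passed the filter on mean signal, and *Sytbeta*, *Frq2* and *Nlg1* lay below it. Signals are given for these 3 genes without a test.

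The tissue was the complete CNS of *Drosophila melanogaster* larvae of the third instar, at the wandering stage, raised at 25 °C. Control larvae carried the *repo-Gal4* driver alone (*repoGal4/+*), HtlACT larvae carried it with an activated FGF receptor (*repoGal4>UAS-Htl[ACT]*), and InR larvae carried it with the insulin receptor (*repoGal4>UAS-InR*). The *repo-Gal4* driver, which all 9 samples shared, is active in glia, so in neither tissue was the transgene directed to the neurons that use the release machinery. Each genotype had 3 samples, each of 10 to 15 larvae and hybridised to its own Affymetrix Drosophila Genome 2.0 array, prepared in triplicate without further detail. The p-values therefore measure the spread between these samples.

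A nerve impulse opens calcium channels at the active zone, and the calcium triggers fusion of docked synaptic vesicles. Fusion is driven by SNARE proteins, of which one sits on the vesicle and others on the plasma membrane, and Munc18 and Munc13 proteins prepare them for it. Clathrin adaptors, dynamin, endophilin and synaptojanin then recover the vesicle membrane for another round. The *Drosophila* genes for these proteins are known largely from the neuromuscular junction, where mutants with paralysis or failing transmission first defined several of them.

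Most of these genes had lower signals in HtlACT tissue. Every array is scaled to the same trimmed mean, so signals give a transcript relative to the rest of the RNA. A gene was counted as lower or higher at a change of at least 1.5-fold with an adjusted p of at most 0.05 (limma on log2 signals, Benjamini-Hochberg over the 8552 genes tested). By this rule 19 of 30 genes (63.3%) were lower in HtlACT than in control tissue and 0 were higher, where 19.2% of all genes tested were lower and 13% higher. In InR tissue 7 of 30 (23.3%) were lower and 0 higher, against 6.58% and 9.24% of all genes. Same-numbered control and InR arrays deviated together. A fit of all 9 arrays with the replicate number as a block gave 9 lower in InR tissue. It added *Sytalpha* (adjusted p = 0.0326) and *shi* (adjusted p = 0.00377). Over all 8552 genes 576 were then lower in InR tissue, from 563. That fit also blocked the HtlACT arrays, which did not all pair by number. The median log2 fold change of the 30 genes was -0.96 in HtlACT tissue and -0.45 in InR tissue, beside -0.15 and -0.09 over all genes tested. Among the 19 lower genes the HtlACT level ranged from 38.3% to 65.1% of control. The 7 genes lower in InR tissue, *Rim*, *Rbp*, *nSyb*, *Snap25*, *EndoA*, *Nlg3* and *Nlg4*, were among the 19. Both comparisons share the same 3 control arrays. When each array was centred on its median instead, *Snap24* and *Dap160* passed as higher in HtlACT tissue. Over all 8552 genes 1518 were then higher, from 1111.

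**Figure D1:**
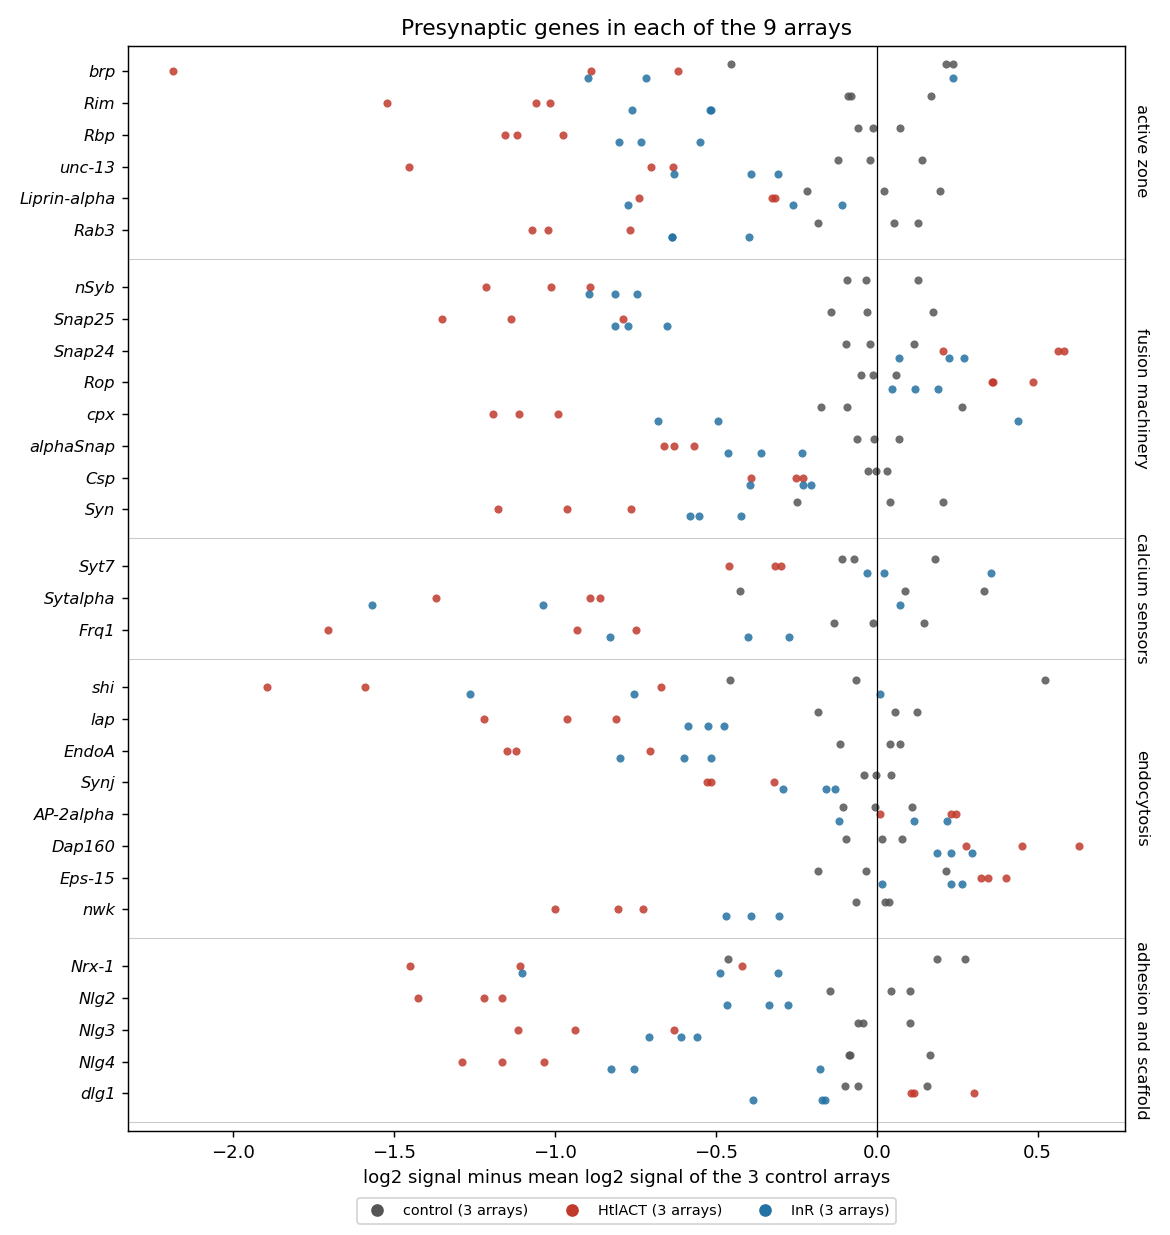
Log2 signal of each of the 30 tested genes in each of the 9 arrays, less the mean log2 signal of the 3 control arrays (horizontal axis), with the genes in rows by role and 1 point per array in grey (control), red (HtlACT) or blue (InR). The HtlACT points of 23 genes lie wholly below the control points, and those of *Snap24*, *Rop*, *Dap160* and *Eps-15* lie wholly above.

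The plot of signals by array shows how far the groups separated. All 3 HtlACT arrays lay below all 3 control arrays for 23 of 30 genes and above them for 4, where 39.7% and 24.1% of all genes tested did so. All 3 InR arrays lay below control for 18 genes and above for 1, against 32.1% and 20.5%.

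The samples also differed in their cell type markers, and the part of these differences in the results was not tested. Of 13 neuronal markers tested 12 were lower in HtlACT and 3 in InR tissue, and their summed signal was 51138 to 52701 in control, 25408 to 31995 in HtlACT and 34938 to 38426 in InR arrays. The summed signal of glial markers was 32929 to 36973 in control, 96245 to 109867 in HtlACT and 60339 to 60854 in InR arrays, with 12 and 6 of 14 higher. *elav*, the pan-neuronal RNA-binding protein, read 8130 ± 616 (SD, n = 3) in control, 4666 ± 634 in HtlACT and 6034 ± 112 in InR tissue. *repo*, the glial transcription factor, read 3350 ± 260, 8365 ± 19.2 and 5628 ± 248. In RNA of whole CNS with signals scaled per array, fewer neurons, less RNA per neuron and dilution by glial RNA cannot be told apart. Fat body markers were high in 3 arrays, with summed signals of 6944 in control 2, 18738 in InR 2 and 9876 in InR 3, against 585 to 1011 in the other 6. Of 5 muscle markers tested only *sls*, the titin-related gene, was higher in InR tissue, at 834 to 1456 against 147 to 216 in control and 183 to 439 in HtlACT arrays, and 2 others were lower in HtlACT tissue. Neuroblast markers also moved with the set, with 7 and 3 of 9 lower in HtlACT and InR tissue (medians -0.68 and -0.56) and summed signals of 24909 to 27243 in control, 13424 to 17455 in HtlACT and 14224 to 19366 in InR arrays.

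Active zone genes were lower in HtlACT tissue with 1 exception. Of 6 genes 5 were lower in HtlACT tissue and 2 in InR tissue, with median log2 fold changes of -1.02 and -0.51. *Rim*, a scaffold that holds calcium channels and vesicles together, read 1031, 1224 and 1023 in the control arrays, 379, 539 and 523 in the HtlACT arrays and 762, 643 and 759.9 in the InR arrays. The 3 groups did not overlap, and the order was control, InR, HtlACT. The log2 fold change was -1.20 (SE 0.15, adjusted p = 0.000357) in HtlACT and -0.60 (SE 0.15, adjusted p = 0.0174) in InR tissue. The InR call was lost under 7 of 22 alternatives, including quantile normalization (-0.56) and leaving out control 2 (adjusted p = 0.0592) or InR 2 (0.0617). A dimmer probe set of *Rim* did not pass in HtlACT tissue (adjusted p = 0.17).

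*Rbp*, the RIM-binding protein that links Rim to the channel, gave the tightest values of the group. It read 456, 471 and 499.6 in control, 219, 213 and 242 in HtlACT and 325, 273 and 286 in InR arrays. Again no 2 groups overlapped. On the log2 scale the change was -1.08 (SE 0.09, adjusted p = 5.34e-05) in HtlACT and -0.69 (SE 0.09, adjusted p = 0.00101) in InR tissue.

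*Rab3*, the small GTPase on synaptic vesicles, read 3346, 4150.0 and 3944 in control, 1806, 1870.5 and 2231 in HtlACT and 2884, 2445 and 2445 in InR arrays. Both tissues lay below control in every array, and the fold change passed only in HtlACT tissue, at -0.95 (SE 0.12, adjusted p = 0.000381). The InR value was -0.56 (adjusted p = 0.00991), just short of 1.5-fold. *unc-13*, the Munc13 protein that primes vesicles, read 2538 to 3041 in control and 1006 to 1778 in HtlACT arrays, a log2 fold change of -0.93 (adjusted p = 0.00617). Its InR arrays, at 1782 to 2230.0, also lay below control, with a value of -0.44 (adjusted p = 0.136).

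*brp*, the ELKS/CAST-related protein of the T-bar at fly active zones, varied most within groups. It read 395, 636 and 626 in control, 119, 292 and 352 in HtlACT and 329, 289 and 636 in InR arrays. The HtlACT arrays lay below control, whereas 1 InR array was as high as the highest control. The HtlACT fold change of -1.23 (SE 0.45) passed narrowly (adjusted p = 0.0469), and it missed the threshold under 13 of 22 alternatives, including without control 2 (adjusted p = 0.121), control 3 (0.118), HtlACT 1 (0.125), HtlACT 2 (0.057), InR 1 (0.0613) or InR 2 (0.0543). A dimmer probe set of *brp* read 149 to 159.7 in control, 62.9 to 97.1 in HtlACT and 97.6 to 128 in InR arrays. That probe set was lower in HtlACT tissue at -0.98 (adjusted p = 0.00151 over 9189 probe sets tested each on its own). *Liprin-alpha*, a scaffold that organises active zone assembly, was the exception of the group. It read 282, 250.2 and 212 in control, 197, 198 and 148 in HtlACT and 229, 206 and 144 in InR arrays, and neither value, -0.46 (adjusted p = 0.0792) or -0.38 (adjusted p = 0.169), passed.

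**Figure D2:**
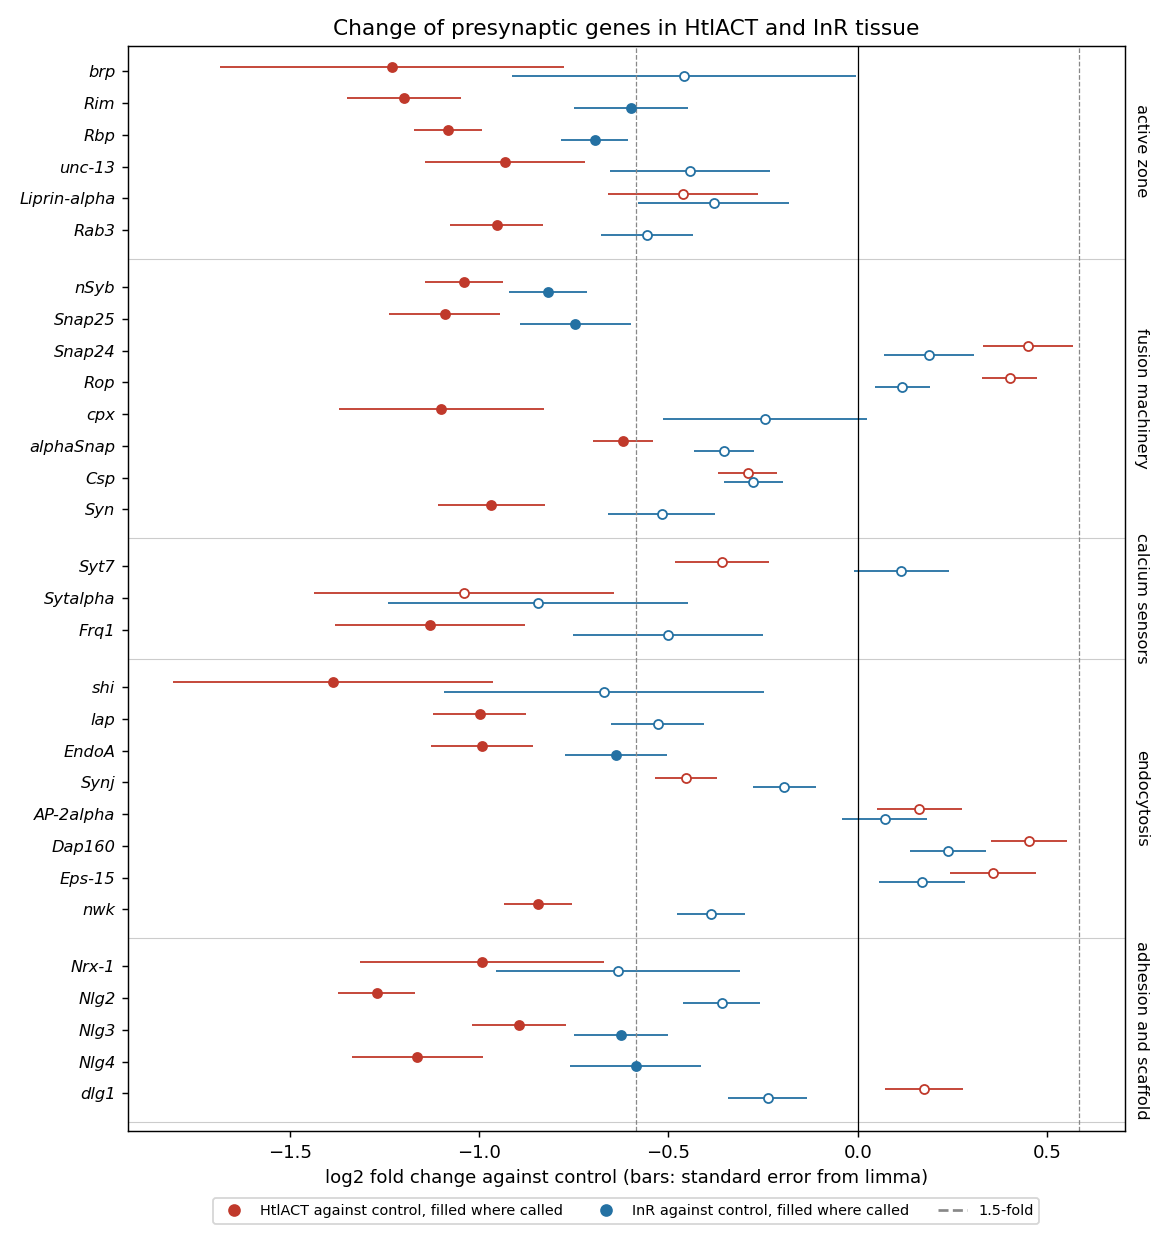
Log2 fold change against control (horizontal axis) of each tested gene in HtlACT (red) and InR (blue) tissue, each from 3 arrays against 3, with bars of 1 standard error from limma, filled points for genes counted as changed and dashed lines at 1.5-fold. *Snap24*, *Rop*, *AP-2alpha*, *Dap160*, *Eps-15* and *dlg1* stand to the right of 0 in HtlACT tissue with open points, and the 19 filled red points lie between -0.62 and -1.39.

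Fusion genes were divided. Of 10 listed 8 were tested, of which 5 were lower in HtlACT and 2 in InR tissue, with median log2 fold changes of -0.79 and -0.31. *nSyb*, the vesicle SNARE of neurons, read 1464, 1704 and 1523 in control, 672, 773 and 841 in HtlACT and 887, 839 and 931 in InR arrays. Both tissues lay well below control, and the HtlACT and InR arrays overlapped. This gave a log2 fold change of -1.04 (SE 0.10, adjusted p = 0.000115) in HtlACT and -0.82 (SE 0.10, adjusted p = 0.000907) in InR tissue, the latter the largest decrease among the 7 genes called in InR.

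*Snap25*, a SNARE of the neuronal plasma membrane, followed the same course. It read 2318, 2506 and 2887 in control, 1165, 1004 and 1483 in HtlACT and 1457, 1499 and 1629 in InR arrays. The fitted log2 change was -1.09 (SE 0.15, adjusted p = 0.00049) in HtlACT and -0.75 (SE 0.15, adjusted p = 0.0065) in InR tissue. *Snap24*, its relative with wider expression, read 492, 518 and 569 in control, 776, 786 and 605 in HtlACT and 614, 634 and 551 in InR arrays. Every HtlACT array was above every control array, but the value of 0.45 (SE 0.12, adjusted p = 0.0124) was under the fold limit, and the InR value was 0.19 (adjusted p = 0.248).

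The pairs of related SNARE genes were set against each other within each array, a comparison chosen after their values had been seen. The ratio of *Snap24* to *Snap25* was 2.91-fold higher in HtlACT and 1.91-fold higher in InR than in control arrays. *Syb*, the widely expressed relative of *nSyb* and no member of the set, read 2604, 2242 and 2418 in control, 5330.3, 4647 and 4771 in HtlACT and 4216, 4406 and 4447 in InR arrays. It was higher in both tissues, at 1.02 (adjusted p = 5.2e-05) and 0.85 (adjusted p = 0.00027). The ratio of *Syb* to *nSyb* was 4.17-fold higher in HtlACT and 3.18-fold higher in InR arrays. In none of the 4 comparisons did the groups overlap. These ratios are a description and carry no test, because the pairs were picked for their opposite shifts.

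**Figure D3:**
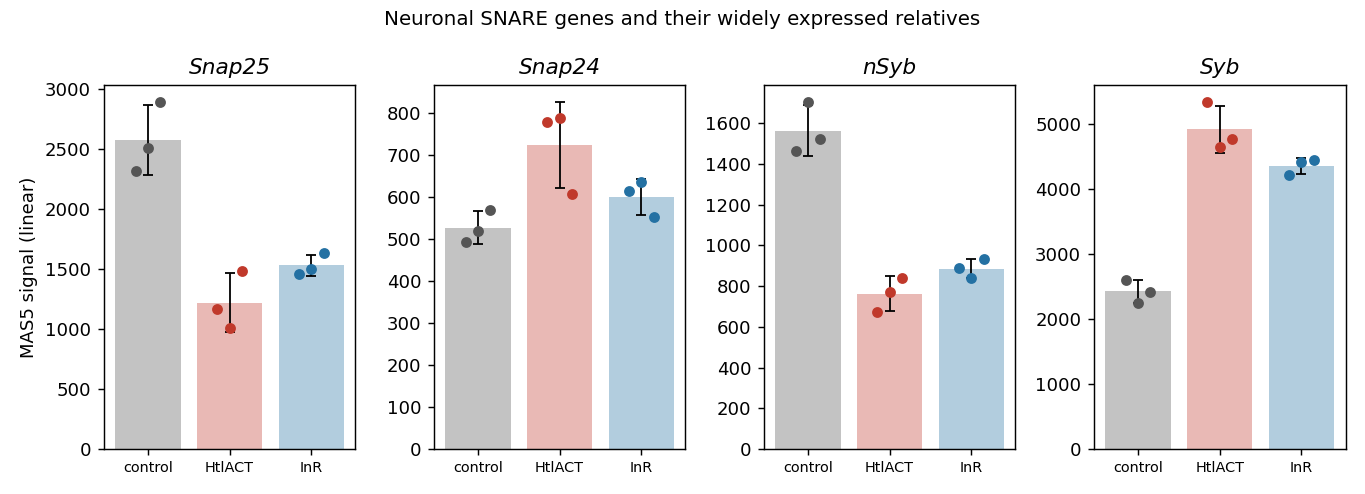
MAS5 signal on a linear axis from 0 for *Snap25*, *Snap24*, *nSyb* and *Syb* in control, HtlACT and InR tissue, with bars for the mean, error bars for the SD and a point for each of the 3 arrays. *Snap25* and *nSyb* are lower and *Syb* higher in both tissues, while *Snap24* averages 526, 723 and 599.6. Each panel has its own scale.

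*Rop*, the Munc18 protein that binds syntaxin, also differed from the neuronal SNAREs. It read 1026, 1054 and 1108 in control, 1486, 1359.9 and 1366 in HtlACT and 1212, 1096 and 1152 in InR arrays. The HtlACT value was 0.40 (SE 0.07, adjusted p = 0.00196), again above control in every array and under the fold limit. *alphaSnap*, the adaptor that brings NSF to used SNARE complexes, was lower in HtlACT tissue by a small but even step, from 1811 to 1982 in control to 1194 to 1275, a log2 fold change of -0.62 (SE 0.08, adjusted p = 0.000375). Its InR arrays lay between, at 1372 to 1608 (-0.35, adjusted p = 0.0109). With median centring the HtlACT value of *alphaSnap* was -0.45, under 1.5-fold, and the call was lost.

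*cpx*, the complexin that clamps and assists fusion, read 1639, 1279 and 1211 in control, 596, 631 and 686 in HtlACT and 1849.9, 970.1 and 852 in InR arrays. The HtlACT arrays were low and close together, whereas InR 1 was above all controls and the other InR arrays below them. The log2 fold change was -1.10 (SE 0.27, adjusted p = 0.00887) in HtlACT and -0.24 (adjusted p = 0.514) in InR tissue. The other probe set of *cpx* did not show the high InR 1 array. It read 896, 958 and 1144 in control, 471, 422 and 552 in HtlACT and 515, 582 and 618 in InR arrays, and there the InR value of -0.80 also passed (adjusted p = 0.00343).

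*Syn*, the synapsin that clusters vesicles in reserve, read 2599 to 3559 in control, 1364 to 1817 in HtlACT and 2063 to 2303 in InR arrays. It was lower in HtlACT tissue, at -0.97 (SE 0.14, adjusted p = 0.00071), and its InR value was -0.52 (adjusted p = 0.023). *Csp*, the cysteine string protein, a chaperone on synaptic vesicles, had the smallest negative value of the fusion genes in HtlACT tissue. It read 3345 to 3483 in control, 2602 to 2906 in HtlACT and 2594 to 2959.8 in InR arrays, with near-equal values of -0.29 (adjusted p = 0.0135) and -0.28 (adjusted p = 0.0266), both under 1.5-fold.

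Of 7 calcium sensor genes 5 were found and 3 tested, and only *Frq1* was lower in HtlACT tissue. *Frq1*, a frequenin that senses calcium in the terminal, read 1278, 1146 and 1053 in control, 354, 687 and 606 in HtlACT and 876, 650.5 and 956 in InR arrays. Both tissues lay below control in every array, and the log2 fold change was -1.13 (SE 0.25, adjusted p = 0.00553) in HtlACT and -0.50 (adjusted p = 0.153) in InR tissue. *Frq1* and *Frq2* encode near-identical proteins and are neighbours in the RefSeq annotation with 0 protein-coding genes between them, so whether the *Frq1* probe set also reads *Frq2* is uncertain. The probe set of *Frq2* itself read 13.7 to 20.5 in control, 16.3 to 18.0 in HtlACT and 3.95 to 18.8 in InR arrays, below the mean signal of 35.2 at which testing began.

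The synaptotagmins were dimmer or changed less. *Syt7*, a calcium sensor of high affinity in other animals, read 1088, 889 and 913 in control, 780.4, 769.8 and 698 in HtlACT and 1227, 974 and 939 in InR arrays. Its HtlACT value was -0.36 (adjusted p = 0.0384) and its InR value 0.12 (adjusted p = 0.504). *Sytalpha* read 108, 91.3 and 64.0 in control, 47.3, 46.3 and 33.2 in HtlACT and 90.3, 41.8 and 28.9 in InR arrays. Its HtlACT arrays all lay below control, and with standard errors of 0.40 neither value, -1.04 (adjusted p = 0.0525) or -0.84 (adjusted p = 0.13), passed. With the replicate number as a block it passed in both tissues (adjusted p = 0.00961 and 0.0326). Same-numbered HtlACT and control arrays did not all deviate together (correlations -0.04, -0.06 and 0.20), so for HtlACT the block lacks a basis in the values. *Sytbeta* read 21.9 to 38.4 in control, 2.88 to 22.5 in HtlACT and 16.7 to 17.3 in InR arrays, below the filter.

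Endocytic genes were divided as well. Of 8 tested 4 were lower in HtlACT tissue and 1 in InR tissue, with median log2 fold changes of -0.65 and -0.29. *lap*, the AP180 clathrin adaptor that sizes vesicles, read 1627, 1918 and 2013 in control, 791, 946 and 1053 in HtlACT and 1283, 1229.7 and 1328 in InR arrays. The groups stood apart without overlap, with a log2 fold change of -0.999 (SE 0.12, adjusted p = 0.000319) in HtlACT and -0.53 (adjusted p = 0.0123) in InR tissue. Its dimmer probe set gave -0.78 (adjusted p = 0.0778) in HtlACT tissue.

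*EndoA*, the endophilin that curves membrane and recruits synaptojanin, was the endocytic gene lower in both tissues. It read 2656, 2959 and 3019 in control, 1321, 1296 and 1762 in HtlACT and 1897, 1651 and 2009 in InR arrays. On the log2 scale the change was -0.99 (SE 0.14, adjusted p = 0.000515) in HtlACT and -0.64 (SE 0.14, adjusted p = 0.00858) in InR tissue. *nwk*, the Nervous wreck F-BAR protein of the terminal, read 1082 to 1161 in control, 565 to 682 in HtlACT and 817 to 917 in InR arrays. It was lower in HtlACT tissue at -0.84 (SE 0.09, adjusted p = 0.000157), with an InR value of -0.39 (adjusted p = 0.0118). A dimmer probe set of *nwk* gave -0.98 with a wide error (SE 0.94, adjusted p = 0.404) in HtlACT tissue. *Synj*, the synaptojanin phosphatase that uncoats vesicles, had a HtlACT value of -0.45 (SE 0.08, adjusted p = 0.00204), from 1165 to 1235 in control to 831 to 961, and an InR value of -0.19 (adjusted p = 0.101).

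*shi*, the fly dynamin, had the largest decrease of the set, with a wide spread. Its chosen probe set read 1582, 2074 and 3116 in control, 584, 720.4 and 1365 in HtlACT and 903, 1287 and 2184 in InR arrays. The HtlACT arrays lay below control, InR 3 was above control 1 and control 2, and replicate 3 held the highest value of each group. This gave a log2 fold change of -1.39 (SE 0.42, adjusted p = 0.0226) in HtlACT and -0.67 (adjusted p = 0.247) in InR tissue. The HtlACT call was lost under 7 of 22 alternatives, including without control 2 (adjusted p = 0.0503), control 3 (0.0752), HtlACT 1 (0.076) or HtlACT 2 (0.0642). With the replicate number as a block, the InR value passed (adjusted p = 0.00377).

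The probe sets of *shi* did not give 1 answer. Another read 934, 1059 and 1003 in control, 567, 602 and 703 in HtlACT and 759, 713 and 806 in InR arrays, with -0.68 (adjusted p = 0.000774) in HtlACT and -0.40 (adjusted p = 0.0184) in InR tissue. The remaining one read 1122, 1060.4 and 1058 in control, 946, 983 and 983 in HtlACT and 1175, 1011 and 1061 in InR arrays, with -0.15 (adjusted p = 0.116) and 0.00 (adjusted p = 0.994). The decrease of *shi* in HtlACT tissue was thus seen on 2 of its 3 probe sets above the filter, at different sizes. Which transcripts each reads is not given in the sources used here.

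**Figure D4:**
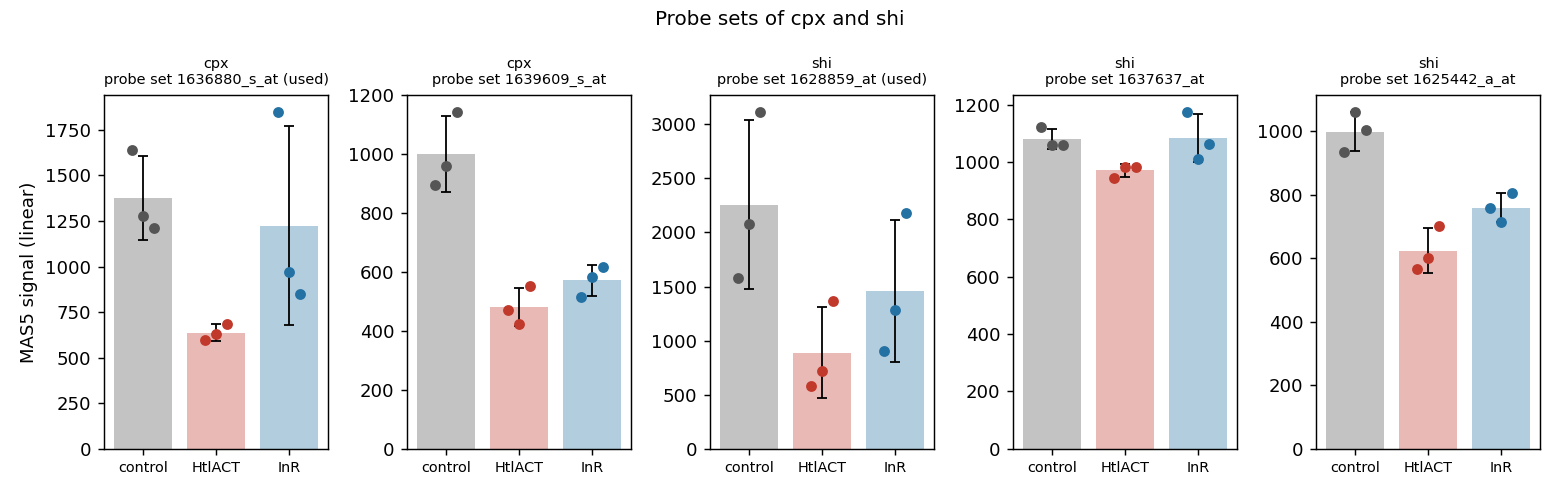
MAS5 signal on a linear axis from 0 for the probe sets of *cpx* and *shi* above the filter, with bars for the mean, error bars for the SD and a point for each of the 3 control, HtlACT and InR arrays. The InR 1 array of *cpx* stands at 1849.9 on the probe set used and at 515 on the other, and the middle panel of *shi* is nearly level across the groups. Each panel has its own scale.

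The other 3 endocytic genes had positive values that did not pass. *AP-2alpha*, the large subunit of the plasma membrane adaptor, read 2897 to 3362 in control, 3136 to 3698 in HtlACT and 2874 to 3621 in InR arrays, with values of 0.16 (adjusted p = 0.247) and 0.07 (adjusted p = 0.651). *Dap160*, the intersectin scaffold, read 439, 459 and 406 in control, 593, 671 and 526 in HtlACT and 509, 533 and 494 in InR arrays. It was above control in every HtlACT and InR array, and its values of 0.45 (SE 0.10, adjusted p = 0.00531) and 0.24 (adjusted p = 0.0962) were under the fold limit. *Eps-15*, its partner in clathrin pits, had values of 0.36 (adjusted p = 0.0274) and 0.17 (adjusted p = 0.274).

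Among the adhesion and scaffold genes 6 were found and 5 tested, with 4 lower in HtlACT and 2 in InR tissue and median log2 fold changes of -0.99 and -0.59. *Nlg2*, a neuroligin, which binds neurexin across the cleft, read 1461, 1523 and 1281 in control, 528, 632 and 608 in HtlACT and 1172, 1123 and 1028 in InR arrays. The HtlACT arrays lay far below the rest and the InR arrays a little below control. The fitted log2 change was -1.27 (SE 0.10, adjusted p = 4.94e-05) in HtlACT and -0.36 (SE 0.10, adjusted p = 0.0268) in InR tissue.

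The dimmer neuroligins *Nlg3* and *Nlg4* were lower in both tissues. *Nlg3* read 209, 234 and 211 in control, 100.4, 141 and 114 in HtlACT and 148, 133 and 143 in InR arrays, with log2 changes of -0.89 (adjusted p = 0.000549) and -0.63 (adjusted p = 0.00648). *Nlg4* read 99.9, 119 and 100.1 in control, 47.3, 51.7 and 43.3 in HtlACT and 93.7, 62.8 and 59.8 in InR arrays, that is, -1.16 (adjusted p = 0.00078) and -0.59 (adjusted p = 0.0309). InR 1 of *Nlg4* thus stood just under the lowest control. The InR calls were unstable: that of *Nlg4* was lost under 12 of 21 alternatives, including without control 1, 2 or 3 (adjusted p = 0.0553, 0.0955 and 0.0609) or InR 2 or 3 (0.0996 and 0.093), and that of *Nlg3* under 6 of 21, including without control 2 (-0.57) or InR 2 (-0.58), both under 1.5-fold. *Nlg1*, the neighbour of *Nlg3*, read 1.62 to 9.4 in control, 8.97 to 23.4 in HtlACT and 5.9 to 16 in InR arrays, below the filter.

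*Nrx-1*, the neurexin itself, read 760.0, 1265 and 1191 in control, 383, 485 and 783 in HtlACT and 746, 487 and 845 in InR arrays. HtlACT 3 was above control 1, so that it was the called gene whose groups overlapped. The HtlACT value of -0.99 (SE 0.32, adjusted p = 0.0293) missed the threshold under 8 of 22 alternatives, including without control 2 (adjusted p = 0.0899), control 3 (0.0844), HtlACT 1 (0.0954) or HtlACT 2 (0.0756), and the InR value was -0.63 (adjusted p = 0.159). *dlg1*, a scaffold of synapses and also of epithelial junctions, read 1508, 1803 and 1553 in control, 1753, 1994 and 1739 in HtlACT and 1437, 1238 and 1447 in InR arrays. Neither value, 0.18 (adjusted p = 0.183) or -0.24 (adjusted p = 0.108), passed, and another probe set of *dlg1* gave -0.53 (adjusted p = 0.123) in HtlACT tissue.

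HtlACT and InR tissue were then compared directly. The difference passed for 2 of 30 genes (6.67%), close to the 6.45% of all genes tested, and 0 were higher (5.43% of all genes). The median log2 difference was -0.36, beside -0.08 over all genes. With each array centred on its median it was -0.08, beside 0.20 over all genes, and *dlg1* passed as higher. That scaling also turned the background round, from 464 higher and 552 lower of all 8552 genes to 1013 and 247. All HtlACT arrays were below all InR arrays for 13 genes and above for 3, where 25% and 16.8% of all genes were.

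The 2 genes that differed were *Nlg2* and *Rim*. *Nlg2* was lower in HtlACT than in InR tissue by 0.91 on the log2 scale (-0.91, SE 0.10, adjusted p = 0.000727), which leaves the HtlACT level at 53.1% of InR. *Rim* differed by -0.60 (SE 0.15, adjusted p = 0.0236), barely past 1.5-fold, and this call was lost under 9 of 22 alternatives, among them median centring (-0.32, adjusted p = 0.227) and leaving out HtlACT 1 (-0.44), InR 1 (adjusted p = 0.0747) or InR 3 (0.0685). Without HtlACT 1 or InR 1 a single gene remained, where 413 and 449 of all genes were lower, from 552. Other differences that came close were *cpx* at -0.86 (adjusted p = 0.0513), *Nlg4* at -0.58 (adjusted p = 0.0436) and *nwk* at -0.46 (adjusted p = 0.00846). The other probe set of *cpx*, without the high InR 1 array, gave -0.25 (adjusted p = 0.209). For *nSyb* the difference was -0.22 (SE 0.10, adjusted p = 0.151) and for *Csp* -0.01 (SE 0.08, adjusted p = 0.911).

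The arrays of a group did not contribute equally. The median of the 30 genes against the control mean was -1.12, -0.82 and -0.72 in HtlACT 1, 2 and 3, and -0.35, -0.58 and -0.41 in the InR arrays. HtlACT 1 was the lowest of its group for 15 genes and control 1 for 19, but InR 1 for only 3. In the first array of each genotype the ACTIN ratio of 3′ to 5′ probe sets, a measure of RNA integrity, was 1.72 (control), 1.75 (HtlACT) and 1.68 (InR), against 1.41 to 1.59 in the other 6. The GAPDH ratio did not repeat this in HtlACT arrays 1 to 3 (1.54, 1.53 and 1.68) or InR arrays 1 to 3 (1.58, 1.58 and 1.63). In the control arrays it was 1.78, 1.72 and 1.67. The part of RNA integrity in the values was not tested. Leaving out 1 array at a time gave 16 to 20 genes lower in HtlACT tissue. Over all genes it gave 1480 to 1664, from 1640.

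The InR counts were smaller without the arrays high in fat body markers, in fits with fewer arrays. Without InR 2, 3 genes were lower in InR tissue (*Rbp*, *nSyb* and *Snap25*), and without control 2, 4 were (the same 3 and *EndoA*). Without both arrays, *Rbp* (-0.65, adjusted p = 0.0227) and *nSyb* (-0.72, adjusted p = 0.0211) passed. When InR 3 was left out as well, 1 InR array remained, taken to vary like the other groups, and 0 genes passed with a median of -0.31. Log2 fold changes remained close for *Snap25* (-0.83, from -0.75), *nSyb* (-0.75, from -0.82) and *EndoA* (-0.58, from -0.64). They were smaller for *Rbp* (-0.56, from -0.69), *Rim* (-0.43, from -0.60) and *Nlg4* (-0.0942, from -0.59). The count over all genes lower in InR tissue went from 563 to 459 without InR 2, 464 without control 2, 317 without both and 56 without all 3, so calls were lost throughout the array. The HtlACT count was 16 without control 2 and InR 2, where over all genes it was 1525, from 1640.

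Other genes of the terminal, and genes with related work in other cells, were set beside these. In a list of 28 further presynaptic genes 24 were tested, of which 19 were lower in HtlACT tissue and 0 higher (median log2 fold change -0.87), and 5 were lower in InR tissue (median -0.50). Among them were *VAChT*, the vesicular acetylcholine transporter, at -1.29 (adjusted p = 0.000276) and -0.78 (adjusted p = 0.00627), and *Fife*, an active zone protein related to Rim, at -1.21 (adjusted p = 0.000182) and -0.99 (adjusted p = 0.00115). With median centring 12 and 11 of these genes were lower in HtlACT and InR tissue. Over all genes 1027 and 918 were then lower, from 1640 and 563. The InR calls of the list did not hold without the 3 arrays high in fat body markers, which left 1 InR array. The list was not tested against the 30 genes.

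Few of the other endocytosis genes and general membrane fusion genes were lower. Over all genes tested 19.2% were lower and 13% higher in HtlACT tissue, and 6.58% and 9.24% in InR tissue. The counts of higher genes in these lists were near or under those shares. Of 12 other endocytosis genes tested 0 were lower and 2 higher in HtlACT tissue (median 0.24), and 0 were lower and 1 higher in InR tissue (median 0.04). The higher genes were *Past1*, an EHD-family ATPase, in both tissues (1.56 and 1.26) and *Amph*, the amphiphysin, which at the fly neuromuscular junction is postsynaptic, in HtlACT tissue (0.94, adjusted p = 0.00229). Of 15 general membrane fusion genes 1 was lower and 2 higher in HtlACT tissue (median 0.18), and 1 was lower and 1 higher in InR tissue (median -0.06). The lower gene was *gammaSnap2* in both tissues (-1.17 and -0.61), and the higher genes were *Syb* in both and *Membrin*, a Golgi SNARE, in HtlACT tissue (0.71, adjusted p = 0.000592).

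**Figure D5:**
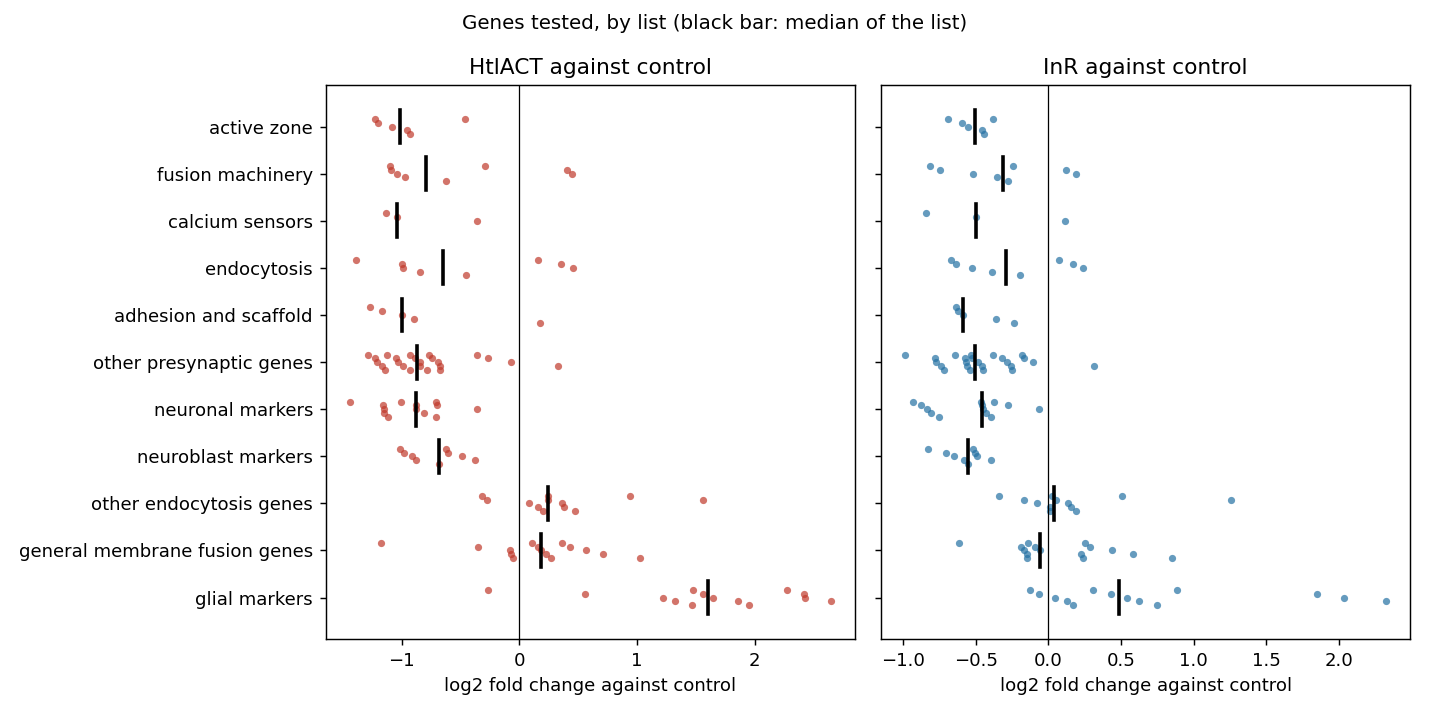
Log2 fold change against control of the tested genes of each list (1 point per gene, horizontal axis, own scale in each panel) in HtlACT (left) and InR (right) tissue, with a black bar at the median of the list. The active zone and other presynaptic genes centre at -1.02 and -0.87 in HtlACT tissue, near the neuronal markers at -0.88, while other endocytosis genes centre at 0.24 and glial markers at 1.60.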

How the data were processed

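RNA of whole larval CNS was measured on 9 arrays in 3 groups by genotype. The authors made the values with MAS5 in Affymetrix Expression Console (versions not given in the sources used here). Each deposited value is a probe set's signal, a linear intensity scaled so that every array has a 2% trimmed mean of 500.0. The 18952 probe sets include 183 controls, which were dropped, and 13647 that name a single gene. The rest name several genes (402) or none (4720). The 25th percentile lay at 5.91 to 9.24, so low signals lie near background. Precision is limited by the 9 arrays (median standard error 0.12 on the log2 scale).

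Signals were taken to log2. Where a gene had several probe sets (1094 genes), the brightest represented it, and the brighter 8552 of 17105 were tested with limma 3.58.1 (R 4.3.3; 6 residual and 2.09 prior degrees of freedom) over all 9 arrays. The genes named are every gene of the set, up to 4 called genes of each comparison list and the tissue checks. *Mhc*, a muscle check, is not analysed here. *Lsp2*, a fat body check, read 236 to 2858 in control, 213 to 516 in HtlACT and 484 to 7047 in InR arrays. Genes and lists were chosen with earlier results of these data known. Of the fat body markers 0 of 3 passed in either tissue. Gene neighbours came from the order of RefSeq protein-coding genes by chromosome and start position.

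The labels number the replicates. Deviations from the group means of same-numbered control and InR arrays correlated at 0.50, 0.37 and 0.23, all over 0.1, so that the numbers meet the criterion for pairing these arrays. The main fit has no block, and the blocked fit was an alternative. The pairing rests on the values, since the labels name no shared batch. Pairs of HtlACT arrays with either group did not all correlate. The calculation was tested on simulated data. Each comparison was repeated with median centring or quantile normalization, without the filter or with the brightest 5701 genes, with a pseudocount of 16, on the 6 arrays compared, with a replicate block, with the trend and robust options of limma, with SAM (20 permutations), without the fold limit, with the mean of all probe sets, without each array, and without the arrays high in fat body genes. Fitting every probe set on its own was added after the data had been seen. Python 3.11.15, numpy 2.4.6, pandas 2.3.3 and matplotlib 3.10.9 made tables and plots.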

Additional observations from a re-analysis of the deposited data

Results flagged for a closer look

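Both *Nlg2* and *Rim* differed between HtlACT and InR tissue in a direct test. *Nlg2* had a log2 difference of HtlACT from InR of -0.91 (limma, adjusted p = 0.000727), with all 3 HtlACT arrays below all 3 InR arrays, and the call was lost under 1 of 22 alternatives. *Rim* had a difference of -0.60 (adjusted p = 0.0236), also without overlap, and the call was lost under 9 of 22, with -0.32 (adjusted p = 0.227) after median centring. These 2 of 30 genes (6.67%) are close to the 6.45% of all genes tested, and the part of cell composition was not tested.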

How the results depend on the processing

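In HtlACT against control 0 of the 30 genes changed sign under any alternative other than single probe sets. Of the 19 genes lower in HtlACT tissue 11 stayed called under every alternative listed above except single probe sets (*Rim*, *Rbp*, *unc-13*, *Rab3*, *nSyb*, *Snap25*, *cpx*, *Syn*, *Frq1*, *lap* and *EndoA*), and the count ran from 14 (mean of all probe sets) to 22 (no fold limit). With each array left out in turn it was 16 to 20. Over all genes the HtlACT count was 1532 with the mean of all probe sets and 3011 with no fold limit, from 1640. With each array left out it was 1480 to 1664. Of the 7 genes lower in InR tissue 0 stayed called throughout. Their count was 4 with the brightest 5701 genes, 14 with no fold limit, 3 with the mean of all probe sets, 2 without control 2 and InR 2, and 3 to 10 with each array left out. Over all genes the first 4 of these counts were 308, 1836, 515 and 317, from 563, and the last was 459 to 570. Without InR 3 as well the median of the set was -0.31. The 2 genes lower in HtlACT than InR became 1 with quantile normalization, median centring, no filter or the mean of all probe sets, 9 with no fold limit, and 1 to 3 with each array left out. Over all genes 373, 247, 366 and 498 were lower in HtlACT than InR in the first 4 of these, from 552. With no fold limit 1205 were, and 413 to 610 with each array left out. Genes higher in HtlACT than control were 2 with median centring and 4 with no fold limit, and higher in HtlACT than InR 1 and 2. Over all genes these counts were 1518, 1826, 1013 and 922. Median centring moved the median to -0.79 in HtlACT tissue and to -0.0775 against InR, and the median of all genes to 0.02 (HtlACT), -0.20 (InR) and 0.20 (HtlACT against InR). Less these shifts the set stood at -0.81, -0.36 and -0.27. Over all genes it gave 1518 higher and 1027 lower in HtlACT tissue, against 1111 and 1640 as deposited.

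With the replicate number as a block, 20 genes were lower in HtlACT, 9 in InR and 4 in HtlACT than InR tissue (adding *cpx*, adjusted p = 0.0456, and *shi*, 0.00422), and 0 were higher. Over all genes 1680, 576 and 556 were then lower, from 1640, 563 and 552. In the same order 1119, 825 and 477 were higher, from 1111, 790 and 464. The block changed no other call but those of *Sytalpha* and *shi* given above. HtlACT arrays did not all pair by number with control (correlations -0.04, -0.06 and 0.20) or InR arrays (-0.04, -0.17 and 0.38). The blocked counts that involve HtlACT tissue therefore lack a basis in the labels or values. Because the block was fitted over all 9 arrays, the blocked InR values also rest on blocking the HtlACT arrays.

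In the lists, other presynaptic genes lower were 12 (HtlACT) and 11 (InR) with median centring, where 1027 and 918 of all genes were lower. General fusion genes higher in HtlACT were 4 with median centring, and higher in InR 2 with quantile normalization. Over all genes these counts were 1518 and 805. Without the 3 arrays with fat body transcripts, 0 other presynaptic, neuronal or general fusion genes were lower, 0 general fusion genes and 3 glial markers higher in InR tissue.

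The uncalled values that changed sign were these, of which some were well away from 0 before, such as those in InR of *Sytalpha* (-0.84), *shi* (-0.67), *brp* (-0.46), *nwk* (-0.39), *Nlg2* (-0.36) and *cpx* (-0.24). With median centring the HtlACT-InR difference was 0.20 for *Liprin-alpha*, 0.0578 for *nSyb*, 0.0112 for *alphaSnap*, 0.27 for *Csp*, 0.0829 for *Sytalpha*, 0.0186 for *Synj* and 0.01 for *Nlg3*, and *AP-2alpha* was -0.0341 in InR. Quantile normalization gave 0.11 for *Liprin-alpha* and 0.064 for *Sytalpha*. The mean of all probe sets gave 0.18 (*brp*) and 0.14 (*Nlg2*) in InR and -0.16 (*Dap160*) for HtlACT-InR. Without the arrays with fat body transcripts, *cpx* was 0.39 and *Sytalpha* 0.12 in InR, and HtlACT-InR was -0.0546 for *AP-2alpha* and 0.0089 for *Csp*. Leaving out each array gave HtlACT-InR differences of -0.277 to 0.0581 for *Liprin-alpha*, -0.0731 to 0.0358 for *Csp*, -0.559 to 0.26 for *Sytalpha* and -0.0033 to 0.167 for *AP-2alpha*, and InR values of -0.0044 to 0.206 for *Syt7* and -0.0011 to 0.166 for *AP-2alpha*. Other probe sets gave 8e-04 (*shi*), 0.033 (*nwk*) and 0.13 (*dlg1*) in InR and -0.53 (*dlg1*) in HtlACT tissue. The cause of these changes was not tested.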

Other observations

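Among genes outside the set, *Amph* moved apart in the tissues. It read 473, 390.3 and 494 in control, 1051, 662 and 922 in HtlACT and 364, 382 and 322 in InR arrays, and the HtlACT-InR difference was 1.28 on the log2 scale (adjusted p = 0.0018). *Past1* read 1187 to 1199 in control, 3439.5 to 3573 in HtlACT and 2785 to 2888 in InR arrays. *gammaSnap2* read 156 to 188 in control, 70.6 to 84.6 in HtlACT and 108 to 117 in InR arrays, lower in both tissues, while its relative *gammaSnap1* had values of -0.07 (adjusted p = 0.7) and -0.09 (adjusted p = 0.657).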
